A study of Homo sapiens with 6 samples.

Results

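Interferon-stimulated genes are the genes that cells switch on when interferon, or the sensing of foreign nucleic acid, tells them that a virus may be present. A list of 43 of these genes was followed in MDA-MB-231 cells after electroporation with a small interfering RNA (siRNA), to ask whether the siRNAs of the study were followed by an unequal interferon response. Every probe set annotated to a member alone was taken, by its current or older symbol (DDX58 for RIGI). Under these symbols 42 of the 43 genes were found in the annotation used, with 65 probe sets of the 22215 that are not controls. The annotation names 11963 genes on the array. The expression of STAT2 was not analysed here.

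MDA-MB-231 is an established human breast cancer line with a mesenchymal-like phenotype. The control group, siLuc, received an siRNA against luciferase, and the other group, siPTHrP, an siRNA against parathyroid hormone-related protein, a secreted peptide known for its part in bone metastasis of breast cancer. Both groups were electroporated with an siRNA, grown for 3 days and profiled on an Affymetrix HG-U133A array for each RNA. The 3 experiments were independent, and each gave 1 siLuc and 1 siPTHrP array, which were compared as a pair. No array of cells without an siRNA was used here, so a response that both siRNAs share cannot be seen in these values. A difference between the groups likewise cannot be told apart from the loss of PTHrP itself, since only 1 siRNA per target was used.

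Double-stranded RNA in the cytoplasm is sensed by RIGI and IFIH1, and by the kinase EIF2AK2 (also called PKR), and siRNAs can engage such sensors. The sensors lead to secretion of type I interferon, whose receptor signals through the kinases JAK1 and TYK2 to a complex of STAT proteins with IRF9. That complex binds a short promoter element, the interferon-stimulated response element, and induces the antiviral genes.

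The element is built around the repeat GAAANNGAAA, which was searched on both strands in the 250 bases before each RefSeq gene start (GRCh38.p14). It was found in 1014 of the 27305 genes with such a window, or 3.71%, and in 21 of the 33 members in the same table, or 63.6%. A match is a description of letters and not a binding site. The stretches below come from members that lay on opposite sides of the control on average, the IFIT genes and OAS3, and from ISG15 and IFI6, reference genes of the response. Capitals mark the repeat, read on either strand, and matches that overlap run together.
IFIT1, chr10:89392495-89392541, plus strand: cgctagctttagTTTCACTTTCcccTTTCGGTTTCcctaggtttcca
IFIT3, first start, chr10:89327829-89327896, plus strand: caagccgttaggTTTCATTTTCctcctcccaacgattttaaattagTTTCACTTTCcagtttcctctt
IFIT3, second start, chr10:89332423-89332499, plus strand: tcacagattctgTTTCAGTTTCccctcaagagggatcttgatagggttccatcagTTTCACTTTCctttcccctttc
IFIT5, chr10:89414511-89414567, plus strand: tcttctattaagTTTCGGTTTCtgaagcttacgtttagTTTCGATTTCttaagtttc
OAS3, chr12:112938319-112938473, plus strand: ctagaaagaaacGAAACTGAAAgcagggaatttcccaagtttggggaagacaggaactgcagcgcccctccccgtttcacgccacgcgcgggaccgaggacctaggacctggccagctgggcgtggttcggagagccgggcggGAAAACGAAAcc
ISG15, chr1:1013372-1013411, plus strand: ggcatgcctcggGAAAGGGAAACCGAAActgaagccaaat
IFI6, chr1:27672264-27672360, minus strand: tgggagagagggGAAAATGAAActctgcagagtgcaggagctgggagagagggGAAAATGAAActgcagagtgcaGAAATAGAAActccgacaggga
The IFIT and OAS3 stretches carry the same repeat, and whether it bears on the differences given below was not tested. OAS3 was described after its values were seen, and its arrays of experiment 2 were alike. The windows of OAS1, RIGI, EIF2AK2, IRF1 and IRF9 held no match, which says only that these letters are not in the window.

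Experiment 1 contained a siLuc array unlike the remaining 5. Over all probe sets its rank correlation (Spearman) with each of them was 0.716 to 0.725, whereas those 5 correlated with one another at 0.882 to 0.960. Among the 43 member probe sets bright enough to be tested it held the highest value of the 6 arrays in 23.3% and the lowest in 25.6%, against 30.2% and 33.8% of all probe sets tested. Values without experiment 1 are therefore given for every tested member whose sign turned and for a number of other genes. The siLuc array of experiment 3 held the lowest value in 30.2% of the 43 member probe sets, against 17.5% of all probe sets tested. It held the highest value in 20.9%, against 17.9%. The mesenchymal markers VIM, CD44, AXL and CAV1 were kept by the filter and TGFBI was not, and the summed signal of these 5 markers was 182688 to 206151 with siLuc and 146078 to 213292 with siPTHrP. Luminal markers (6 of 6 on the array, with PGR and CDH1 below the filter) summed to 2835 to 5847 and 2562 to 3585, and leucocyte markers (4 of 6 on the array, with PTPRC and CD14 below the filter) to 1443 to 3557 and 1379 to 1605. The part of these markers in the results was not tested. The transcript that siPTHrP targets was not analysed here, so the knockdown was not checked.

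No interferon-stimulated gene differed between siPTHrP and siLuc after adjustment for all probe sets tested, and the genes did not lie on one side of the control. The 4 IFIT genes were above the siLuc level in each of the 3 experiments, whereas OAS1, OAS2, OAS3 and the 3 tested probe sets of PML were below it on average. OAS1 passed the filter only through the siLuc arrays. Its other probe set, below the filter, stood at 0.061 on the log2 scale when all probe sets were fitted. The 95% intervals of ISG15, MX1, IFI6, IFIT2, IFIT3, OAS1 and OAS2 included no difference. Those of IFIT1, IFIT5, OAS3 and the brightest PML probe set did not. A probe set was tested where the mean of log2(signal + 16) over the 6 arrays reached the 40th percentile, a signal of about 376, which kept 43 member probe sets of 34 genes and 13329 probe sets in all. Fold changes are siPTHrP over siLuc on that log2 scale, from limma with the experiment as a block, and p-values are two-sided and adjusted by Benjamini-Hochberg over the 13329. At an adjusted p of 0.05, 0 of 43 member probe sets passed and 0% of all. At an unadjusted p of 0.05, 2 of 43 (4.65%) were higher with siPTHrP, against 6.77% of all probe sets tested, and 2 (4.65%) were lower, against 5.36%. All 3 siPTHrP arrays were above all 3 siLuc arrays for 3 members (6.98%, background 8.94%) and below them for 2 (4.65%, background 9.69%). The difference had the same sign in every experiment for 8 members on the higher side (18.6%, background 19.1%) and for 7 on the lower side (16.3%, background 19%). Each of these shares was at or below that of the array as a whole.

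By the brightest tested probe set of each gene, 21 of 34 members were above the siLuc level and 13 below it. Their median log2 fold change was 0.17, with medians of 0.073, 0.055 and 0.18 in experiments 1, 2 and 3. By the brightest tested probe set of each of 8120 named genes, the median was 0.033, with 4281 above 0 and 3839 below. The medians of these genes in experiments 1, 2 and 3 were 0.088, -0.037 and -0.0035. Over all probe sets tested the median was 0.030, with 6994 above 0 and 6335 below.

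**Figure D1:**
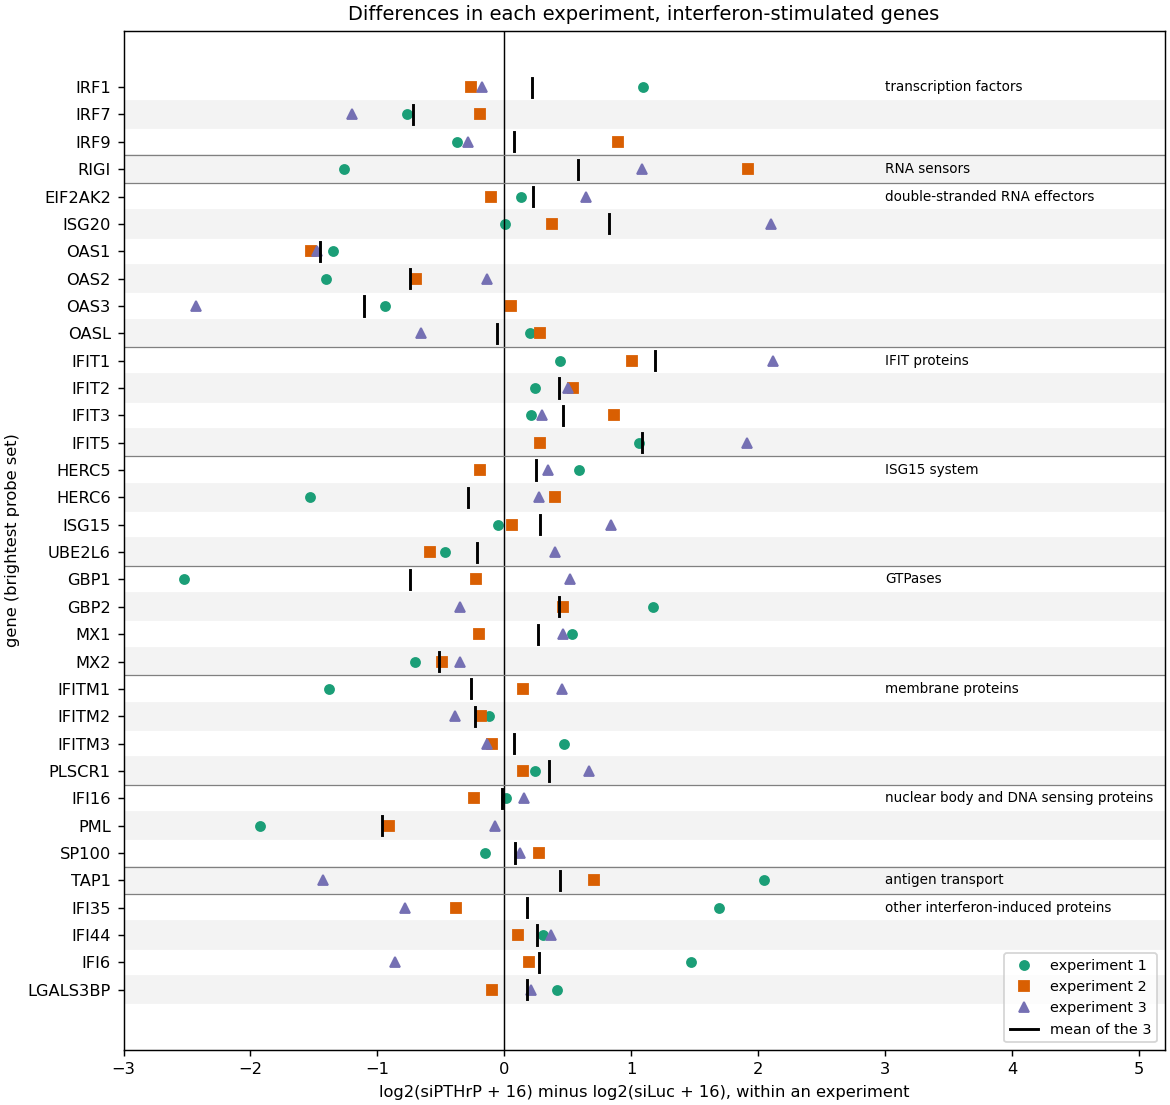
Log2 difference between siPTHrP and siLuc (horizontal axis) in each of the 3 experiments for the brightest tested probe set of 34 member genes, grouped by role; each point is 1 experiment and the black bar is the mean of the 3. The points of the 4 IFIT genes lie to the right of 0 in every experiment, those of OAS1 and OAS2 to the left, and most other members have points on both sides.

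**Figure D2:**
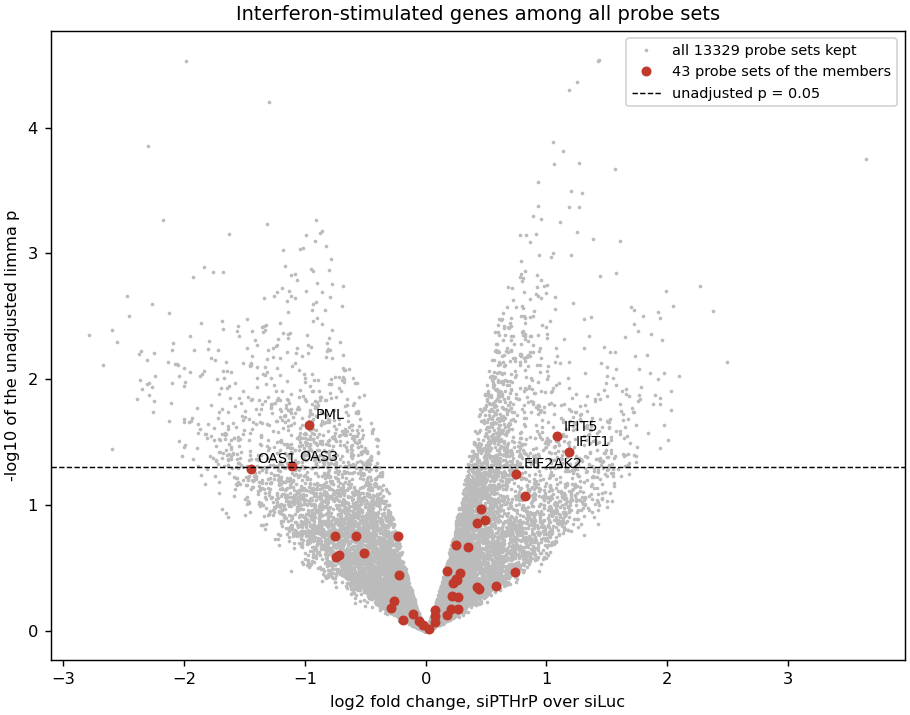
Log2 fold change (horizontal axis) against the negative log10 of the unadjusted p-value (vertical axis) for the 13329 probe sets tested, with the 43 member probe sets marked. Members lie on both sides of 0, and only 4 of them have an unadjusted p below 0.05, IFIT1 and IFIT5 on the right and OAS3 and PML on the left.

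The IFIT proteins bind viral RNA and block its translation, and their genes, neighbours on chromosome 10, are among the most strongly induced in the response. All 4 measured family members were above the siLuc level, and the family's median on the log2 scale was 0.77, with 0.34, 0.70 and 1.21 in experiments 1, 2 and 3. IFIT1, whose product recognises RNA that lacks the methylated cap of host messages, had signals of 1029, 660 and 161 with siLuc and of 1402, 1339 and 750 with siPTHrP in experiments 1, 2 and 3. The means were 617 ± 436 and 1164 ± 360 (SD, n = 3). The siLuc array of experiment 3 was the lowest, and the groups overlapped because the siLuc array of experiment 1 exceeded the siPTHrP array of experiment 3. The fold change was 2.27 (log2 1.19, SE 0.49, 95% interval 0.085 to 2.29, adjusted p = 0.402).

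IFIT5, which binds RNA with a 5′ phosphate, stood at 919, 1320 and 272 with siLuc and at 1936, 1609 and 1069 with siPTHrP. The lowest value was again that of siLuc in experiment 3, and the siLuc array of experiment 2 exceeded the siPTHrP array of experiment 3. Its fold change was 2.12 (log2 1.09, SE 0.42, interval 0.15 to 2.03, adjusted p = 0.393). A second IFIT5 probe set, below the filter and described after its values were seen, read 105, 152 and 275 against 776, 598 and 550, without overlap, and had a fold change of 3.59 when all probe sets were fitted (log2 1.85, SE 0.71, adjusted p = 0.418). IFIT3, a partner of IFIT1, had 2437, 1515 and 1773 with siLuc and 2825, 2771 and 2183 with siPTHrP. The groups overlapped, since siLuc in experiment 1 was above siPTHrP in experiment 3, and the fold change was 1.37 (log2 0.46, SE 0.26, adjusted p = 0.472). IFIT2, which forms complexes with IFIT1 and IFIT3, had 1810, 1372 and 1515 with siLuc and 2139, 2005 and 2151 with siPTHrP. The 3 siPTHrP arrays were close together and above every siLuc array, with a fold change of 1.34 (log2 0.43, SE 0.26, adjusted p = 0.505). Without experiment 1 the log2 fold changes of IFIT1, IFIT3 and IFIT5 were 1.56, 0.58 and 1.10, and the adjusted p of IFIT1 was 0.187. With experiment 3 left out, IFIT1, IFIT2, IFIT3 and IFIT5 stood at 0.72, 0.39, 0.54 and 0.67 on the log2 scale. The adjusted p was then 0.649 for IFIT1 and 0.611 for IFIT5. With experiment 2 left out, the same genes stood at 1.28, 0.37, 0.25 and 1.49.

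**Figure D3:**
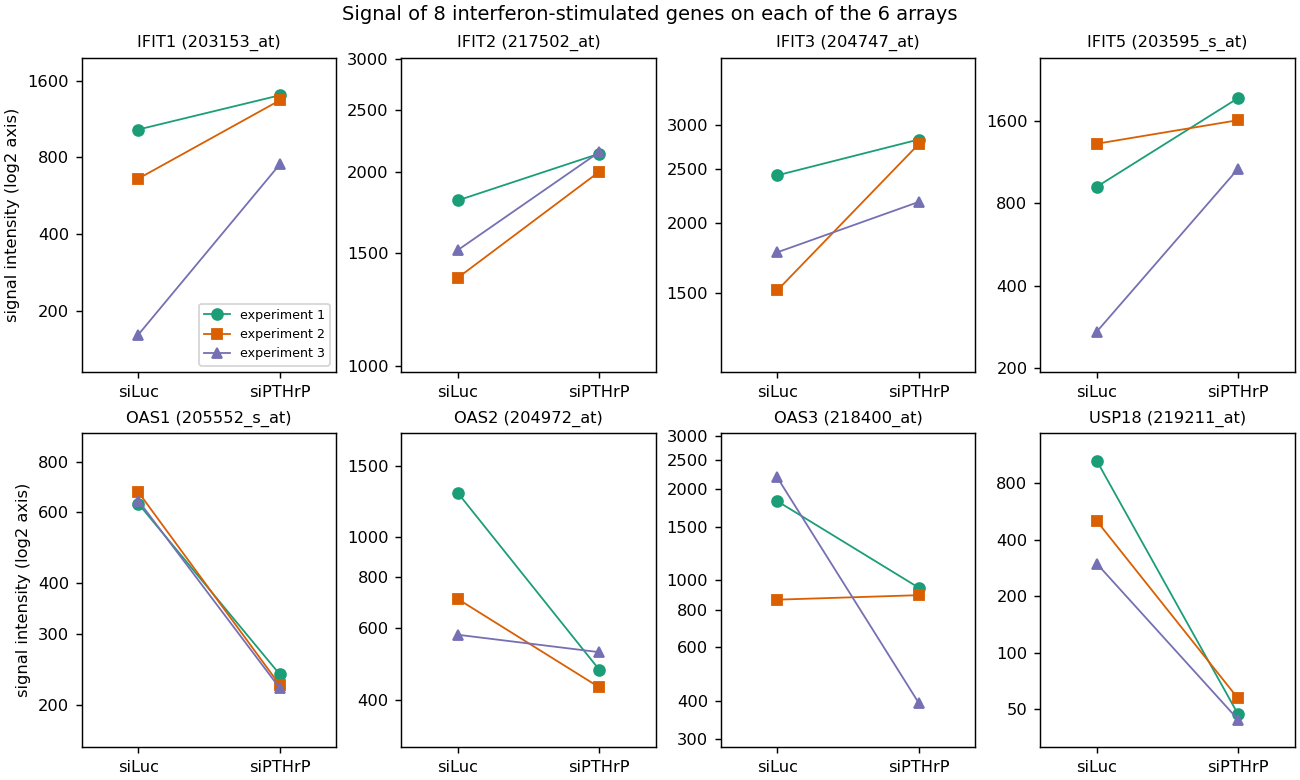
Signal intensity (vertical axis, log2 scale) of IFIT1, IFIT2, IFIT3, IFIT5, OAS1, OAS2, OAS3 and USP18 on each of the 6 arrays, with siLuc at the left and siPTHrP at the right of each panel and a line joining the pair of arrays of an experiment. Every IFIT line slopes up, every line of OAS1, OAS2 and USP18 slopes down, and OAS3 is near level in experiment 2; USP18 was below the filter.

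The other effectors that act on double-stranded RNA lay on both sides of the control. Of 6 genes of this role, 2 were above the siLuc level and 4 below, and the median on the log2 scale was -0.40. The OAS enzymes make 2′-5′ oligoadenylates when they bind double-stranded RNA, and these activate the nuclease RNase L. OAS1, by its brighter probe set, stood at 631, 674 and 642 with siLuc and at 238, 224 and 220 with siPTHrP. The arrays of each group lay close together and the groups were far apart, with means of 649 ± 22.4 and 227 ± 9.45 (SD, n = 3). The fold change was 0.366 (log2 -1.45, SE 0.65, interval -2.91 to 0.0085, adjusted p = 0.411). The SE comes largely from the spread of other probe sets of like intensity, which limma shares across the table. This probe set passed the filter only through the siLuc arrays, since the siPTHrP mean lay below it. The other OAS1 probe set, below the filter on both sides, read 128, 285 and 175 against 275, 265 and 99, a log2 fold change of 0.061, so the probe sets of OAS1 did not give the same direction.

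OAS2 had 1286, 707 and 578 with siLuc and 475, 430 and 524 with siPTHrP. The groups did not overlap, but the gap in experiment 3 was small, and the fold change was 0.596 (log2 -0.75, SE 0.51, adjusted p = 0.535). OAS3, described after its values were seen, had 1826, 863 and 2188 with siLuc and 946, 893 and 394 with siPTHrP. Its 2 arrays of experiment 2 were alike, and siLuc in that experiment was below 2 of the siPTHrP arrays. The fold change of OAS3 was 0.465 (log2 -1.11, SE 0.49, interval -2.20 to -0.0056, adjusted p = 0.410). OASL, a relative without the enzyme's activity, was near the control by both of its probe sets, with log2 fold changes of -0.060 and -0.10. Without experiment 1, OAS1, OAS2 and OAS3 stood at -1.50, -0.42 and -1.19 on the log2 scale. Without experiment 3, OAS3 stood at -0.44 (fold change 0.735, adjusted p = 0.800).

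EIF2AK2, the kinase that halts translation after binding double-stranded RNA, had 2330, 2306 and 1413 with siLuc and 2554, 2148 and 2209 with siPTHrP by its brightest probe set. The groups overlapped, and the fold change was 1.17 (log2 0.22, interval -0.37 to 0.81, adjusted p = 0.725). Its other probe set, described after its values were seen, read 3008, 943 and 1317 against 2528, 2592 and 2758. The siLuc array of experiment 1 was the highest of the 6 and the other siLuc arrays were the lowest, so that the difference had one sign in experiment 1 and the other sign in experiments 2 and 3. The fold change was 1.68 with 3 experiments (log2 0.75, adjusted p = 0.421) and 2.38 without experiment 1 (log2 1.25, adjusted p = 0.0682). With the arrays weighted by their fit, this probe set passed, at a log2 fold change of 1.15 (adjusted p = 0.0429). It did so as 1 of 43 members, against 1.33% of all probe sets. Both arrays of an experiment received the same weight, which was 0.386, 2.23 and 1.16 in experiments 1, 2 and 3. These weights therefore did not single out the unlike siLuc array.

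ISG20, an RNA exonuclease, had 1547, 1277 and 527 with siLuc and 1554, 1660 and 2307 with siPTHrP. All siPTHrP arrays were above all siLuc arrays, though in experiment 1 by hardly any margin, and the fold change was 1.77 (log2 0.83, SE 0.43, adjusted p = 0.453). Its dimmer probe set, below the filter, stood at -0.31. The log2 fold change of ISG20 was 1.24 without experiment 1 (adjusted p = 0.151) and 0.19 without experiment 3 (fold change 1.14, adjusted p = 0.911).

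The sensors upstream of interferon gave values that overlapped widely between the groups. RIGI, which recognises short double-stranded RNA with a 5′ triphosphate, read 1054, 145 and 358 with siLuc and 429, 594 and 778 with siPTHrP. The siLuc array of experiment 1 was the highest and the siLuc array of experiment 2 the lowest of all 6. The log2 fold change was 0.58 (interval -1.05 to 2.21, adjusted p = 0.742), 1.50 without experiment 1 and -0.090 without experiment 2. IFIH1, the sensor of long double-stranded RNA, was below the filter at 86.9, 206 and 420 with siLuc and 254, 256 and 262 with siPTHrP, and stood at 0.35 with the interval from -1.39 to 2.08 when all probe sets were fitted, and at -0.18 without experiment 1. Its siLuc values enclosed its siPTHrP values.

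Of the transcription factors, IRF9, the DNA-binding partner of the STAT proteins, had 1333, 631 and 1501 with siLuc and 1023, 1189 and 1230 with siPTHrP. The siPTHrP values lay inside the siLuc range, and the log2 fold change was 0.079 (interval -0.80 to 0.95, adjusted p = 0.946). IRF1, which is induced by interferon and carries its signal on, stood at 0.22 and, without experiment 1, at -0.22. Its 1 low array was siLuc in experiment 1 (913, against 1849 to 2292 on the others). IRF7, the factor that amplifies interferon production, had 683, 394 and 847 with siLuc and 394, 342 and 360 with siPTHrP. It was lower with siPTHrP in every experiment, but siLuc in experiment 2 equalled siPTHrP in experiment 1, and the log2 fold change was -0.72 (SE 0.58, adjusted p = 0.600). IRF7 too passed the filter only through the siLuc arrays.

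ISG15 is a ubiquitin-like protein that is joined to other proteins by UBE2L6 and HERC5 and removed by USP18, which also restrains the interferon receptor. ISG15 had 2294, 1658 and 1400 with siLuc and 2212, 1732 and 2520 with siPTHrP. The groups overlapped, experiment 3 gave the only sizeable difference, and the fold change was 1.22 (log2 0.28, interval -0.36 to 0.92, adjusted p = 0.674). HERC5, HERC6 and UBE2L6 stood at log2 fold changes of 0.25, -0.29 and -0.22, each with signs that differed between experiments, and HERC6 at 0.33 without experiment 1. USP18, below the filter and described after its values were seen, read 1053, 503 and 298 with siLuc and 47, 57 and 44 with siPTHrP. Every siPTHrP array was near the dim end of the array and every siLuc array was above it, with means of 618 ± 390 and 49.3 ± 6.81 (SD, n = 3). With all probe sets fitted the fold change was 0.117 (log2 -3.10, SE 0.78, interval -4.84 to -1.37, adjusted p = 0.392), and without experiment 1 it was -2.61 on the log2 scale (adjusted p = 0.333). At such dim signals the size depends on the offset added before the logarithm, and it was -3.44 with an offset of 1 and -2.43 with 64.

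That value has to be read against other dim probe sets. Of the 22 member probe sets below the filter, USP18 was the 1 with an unadjusted p below 0.05 on the lower side (4.55%), against 8.74% of the 8886 such probe sets on the array, and the second IFIT5 probe set was the 1 on the higher side (4.55%), against 0.54%. USP18 and RSAD2 (viperin, which makes an antiviral nucleotide) were the 2 whose siPTHrP arrays all lay below the siLuc arrays (9.09%), against 17%, and the second IFIT5 probe set was the 1 on the higher side (4.55%), against 2.09%. Dim probe sets were thus more often lower than higher with siPTHrP across the whole array. RSAD2 read 173, 422 and 118 with siLuc and 84, 85 and 73 with siPTHrP, with a log2 fold change of -1.21 (SE 0.77, adjusted p = 0.523).

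MX1, a GTPase that traps viral ribonucleoproteins and a standard marker of type I interferon, had 841, 967 and 545 with siLuc and 1223, 840 and 756 with siPTHrP. The groups overlapped, and the fold change was 1.20 (log2 0.26, interval -0.67 to 1.20, adjusted p = 0.794). MX2, its nuclear-pore relative, was lower with siPTHrP in every experiment (1119, 1083 and 753 against 681, 766 and 588), with a log2 fold change of -0.51 (SE 0.41, adjusted p = 0.594). Of the guanylate-binding proteins, GBP1 stood at -0.74 with 3 experiments and 0.15 without experiment 1, and GBP2 at 0.43 and 0.056.

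Membrane proteins of the response lay on both sides of the control, 2 of 4 tested genes above it. IFITM1, which blocks entry of enveloped viruses, had 2282, 887 and 575 with siLuc and 866, 984 and 792 with siPTHrP. Its log2 fold change of -0.26 (adjusted p = 0.818) rested on the high siLuc array of experiment 1, and it was 0.30 without that experiment. IFITM2 was lower in each experiment by a small margin (13947, 17303 and 14706 against 12812, 15216 and 11236), at a fold change of 0.852 (log2 -0.23, SE 0.16, adjusted p = 0.535), and IFITM3 stood at 0.077, or -0.12 without experiment 1. PLSCR1, a phospholipid scramblase, stood at 0.35 by its brighter probe set and 0.025 by the other. BST2, or tetherin, was below the filter.

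PML builds the nuclear bodies that hold SP100 and restrain DNA viruses. By its brightest probe set PML had 3688, 2236 and 2410 with siLuc and 960, 1183 and 2294 with siPTHrP. The difference was widest in experiment 1 and near 0 in experiment 3, and the groups overlapped. The fold change was 0.511 (log2 -0.97, SE 0.35, interval -1.77 to -0.17, adjusted p = 0.379), and -0.49 on the log2 scale without experiment 1. A second tested probe set read 1113, 953 and 1209 against 742, 535 and 958 (log2 -0.57, SE 0.39, adjusted p = 0.535). The third stood at -0.19, with opposite signs between experiment 1 and the others, and at 1.04 without experiment 1, and 5 more PML probe sets were below the filter. SP100 stood at 0.081 by its brightest probe set, and a second one turned from 0.21 to -0.58 without experiment 1. IFI16, a sensor of viral DNA, was at -0.023, 0.25 and 0.49 by its 3 probe sets, the second of them higher in every experiment.

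Among the remaining members, 4 of 4 tested genes were above the siLuc level, with a median of 0.22. The medians in experiments 1, 2 and 3 were 0.94, 0.0058 and -0.29, and IFI35 and IFI6 were below 0 without experiment 1. IFI6, a mitochondrial and endoplasmic reticulum protein that is a common readout of interferon, had 193, 631 and 871 with siLuc and 565, 726 and 473 with siPTHrP. The siLuc array of experiment 1 was the lowest and that of experiment 3 the highest of the 6. Its log2 fold change was 0.27 (interval -1.12 to 1.67, adjusted p = 0.867) and -0.33 without experiment 1. IFI44 had 1221, 1388 and 1411 with siLuc and 1512, 1497 and 1827 with siPTHrP, without overlap, at a fold change of 1.20 (log2 0.26, SE 0.29, adjusted p = 0.709), while its dimmer probe set stood at -0.86. LGALS3BP was at 0.17, or 0.056 without experiment 1, and IFI35 at 0.18, or -0.58. TAP1, which carries peptides for antigen presentation, was at 0.44 with signs that differed between experiments, and at -0.36 without experiment 1. TRIM22, IFI27, IFI44L and XAF1 had probe sets below the filter only, as had IFIH1, BST2, RSAD2 and USP18.

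Leaving out experiment 1 turned the sign of 10 of the 43 tested member probe sets, and 25 were then above 0 and 18 below. The 10 belonged to GBP1, HERC6, TAP1, IFITM1, IFITM3, PML, SP100, IFI35, IFI6 and IRF1. At an unadjusted p of 0.05, 6 of the 43 were then higher with siPTHrP, against 6.72% of all probe sets tested. They belonged to IFIT1, IFIT3, IFIT5, EIF2AK2, RIGI and ISG20. Another 3 of the 43 were lower (OAS1, OAS3 and 1 probe set of SP100), against 7.16%. In both directions together the share was 20.9% of the member probe sets and 13.9% of all. No member passed the adjusted threshold. The IFIT genes, OAS1 and OAS2 had the same sign in all 3 experiments, so leaving out experiment 1 could not turn their direction. OAS3, whose sign differed between experiments, stood at -1.19 on the log2 scale without the experiment that held the unlike array.

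**Figure D4:**
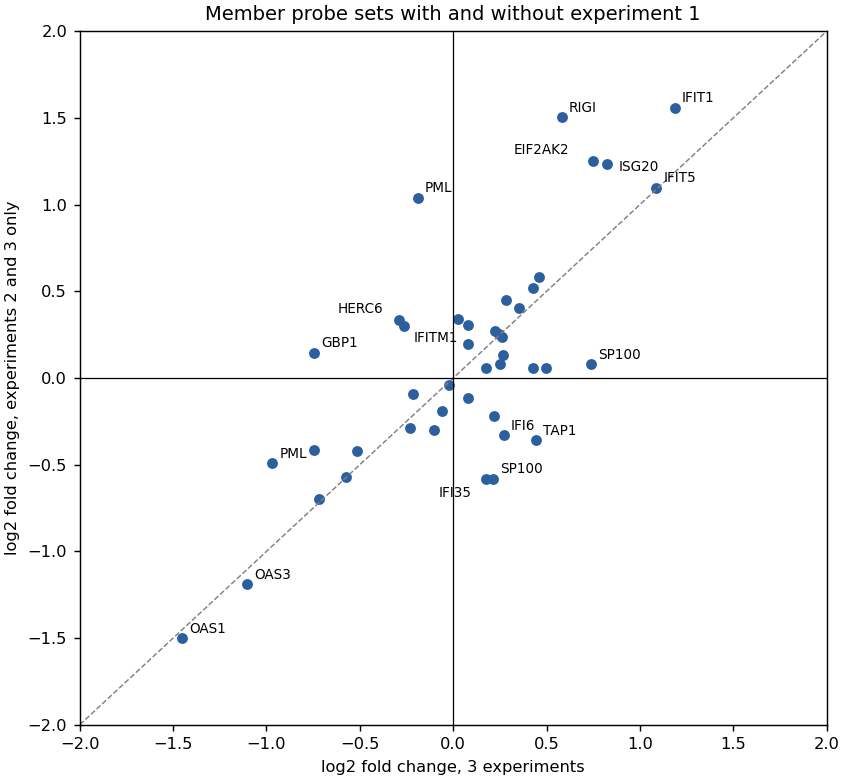
Log2 fold change of the 43 tested member probe sets with all 3 experiments (horizontal axis) and with experiments 2 and 3 only (vertical axis); the dashed line marks equal values. OAS1, OAS3 and IFIT5 lie on or close to the line, 1 PML probe set, RIGI and GBP1 lie farthest above it, and TAP1, 1 SP100 probe set and IFI35 farthest below.

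Other genes of the interferon pathway were read from 6 lists of 76 genes, of which the array named 69 and 51 were tested. By their brightest probe sets 31 were above the siLuc level and 20 below, 0 passed the adjusted threshold, and at an unadjusted p of 0.05, 3 were higher (5.88%) and 5 lower (9.8%), against 6.77% and 5.36% of all probe sets tested. The shares of the lists count genes by their brightest probe sets, whereas the background counts every probe set tested. Of ligands and receptors, 9 of 20 listed genes were tested, 4 above the control and 5 below, at a median of -0.30 on the log2 scale. IFNGR1, the ligand-binding chain of the receptor for interferon gamma, had 636, 1092 and 657 with siLuc and 2292, 2854 and 1469 with siPTHrP. Its siPTHrP arrays were all above its siLuc arrays, at a fold change of 2.73 (log2 1.45, SE 0.32, adjusted p = 0.321), and a second probe set stood at 0.98. The ligand probe sets for IFNA17 and IFNA7 had fold changes of 0.557 and 0.490, and IFNA7 passed the filter only through the siLuc arrays. Both have the suffix _x_at, a type of probe set that an alternative fit left out. Whether they read these genes alone was not tested. Without experiment 1 the log2 fold changes of IFNGR1, IFNA17 and IFNA7 were 1.26, -0.59 and -1.15.

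Of the 3 signalling kinases and STAT genes tested, 2 were above the control and 1 below. TYK2, the kinase attached to the type I interferon receptor, had 319, 270 and 342 with siLuc and 1013, 1343 and 1166 with siPTHrP. The spread within each group was small beside the gap, and the fold change was 3.64 (log2 1.86, SE 0.50, adjusted p = 0.324), or 1.99 on the log2 scale without experiment 1. TYK2 passed the filter only through its siPTHrP arrays. JAK1, its partner, stood at a fold change of 1.05. STAT3, a factor of cytokine signalling, stood at 0.883 by its brightest probe set and at 2.52 by a dimmer one, which read 238, 723 and 629 with siLuc and 1275, 1055 and 1382 with siPTHrP (log2 1.33, adjusted p = 0.379). The groups of the dimmer probe set did not overlap, so the STAT3 probe sets did not give the same direction. With array weights IFNGR1 and TYK2 had adjusted p = 0.0335 and 0.0395, as 1.33% of all probe sets passed with these weights.

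The brakes of the pathway, 8 genes that were all tested, stood at a median of -0.39 on the log2 scale, 4 above and 4 below. SOCS3, which blocks JAK kinases, had 3420, 1544 and 2590 with siLuc and 792, 1030 and 1019 with siPTHrP by its brightest probe set. The groups did not overlap, at a fold change of 0.397 (log2 -1.33, SE 0.35, adjusted p = 0.324), while its other tested probe sets stood at -0.80 and 0.087. SOCS1, the inhibitor most closely tied to interferon signalling, and the phosphatase PTPN6 had fold changes of 0.446 and 0.418, with adjusted p = 0.370 and adjusted p = 0.398, and PTPN6 passed the filter only through the siLuc arrays. Without experiment 1 the log2 fold changes of SOCS3, SOCS1 and PTPN6 were -0.95, -0.72 and -1.17.

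Of 12 tested genes for RNA sensing and silencing, 7 were above the control and 5 below, with a median of 0.083. IKBKE, a kinase that activates interferon regulatory factors, had a fold change of 0.492 (adjusted p = 0.377), ADAR, the editor of double-stranded RNA, 1.33, and TARBP2, a partner of Dicer, 0.744. Of 12 tested antigen presentation genes 10 were above and 2 below, with a median of 0.14. HLA-B, HLA-C and B2M, parts of the class I complex, stood at fold changes of 1.48, 1.27 and 1.20. The HLA-B and HLA-C probe sets also have the suffix _x_at, and whether they read these genes alone was not tested. A second tested B2M probe set stood at 1.02. HLA-B had adjusted p = 0.390, and its log2 fold change was 0.56 with 3 experiments and 0.27 without experiment 1. Of 7 tested chemokines and enzymes induced by interferon, 4 were above and 3 below, with a median of 0.074. WARS1 stood at a fold change of 1.28 (1.10 without experiment 1), CIITA at 0.618 and CXCL10 at 0.633. A second tested WARS1 probe set stood at 0.953, so the WARS1 probe sets did not give the same direction.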

How the data were processed

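The deposited values are signal intensities on a linear scale. The authors made them with MAS5, as the submitters' processing notes name it, with settings not given in the sources used. MAS5 subtracts mismatch signal, so dim probe sets are noisy. The trimmed mean (2% at each end) was 1500.4 to 1500.6 on every array, and this scaling was kept. Values with decimals made up 90.1% of the siLuc array of experiment 1, and the other arrays held whole numbers. Median signals were 559 to 887, and 3 arrays per group limit the precision.

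Groups came from titles and descriptions. One siLuc sample carries no number and was assigned to experiment 1 because 2 and 3 were taken, and the sample titled as siLuc 3, whose description says 2, was used as titled. The design text pairs RNAs of the same number, so the experiment was a block. Deviations from the group means correlated at -0.012, 0.157 and 0.157 within experiments 1, 2 and 3 and at -0.206 to 0.132 otherwise.

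Of 22283 probe sets, 68 controls were removed. Log2(intensity + 16) was filtered at the 40th percentile of the mean and fitted with limma 3.58.1 in R 4.3.3 (lmFit, and eBayes with a trend, with 2 residual and 7.17 prior degrees of freedom). Dimmer probe sets take their values from a fit of all probe sets. A single gene was annotated to 19071 probe sets, while 1043 had several and 2169 had none, and symbols follow RefSeq. Each gene was represented by its brightest tested probe set.

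The members and lists were chosen with earlier results of these data known. Full values were given for the member probe sets with the smallest unadjusted p (up to 10) among those of the same sign in all 3 experiments, and for IFIT1, IFIT3, MX1, ISG15, OAS1, IFI6, IFITM1, IRF9, EIF2AK2, RIGI and IFIH1 whatever their values. Of each pathway list up to 3 genes with the smallest p were named. The steps were tested on simulated data. Alternatives were the fit with no replicate block, an offset of 1 or 64, median centring, quantile normalization, a filter at the 60th percentile or none, array weights, no trend, no _x_at or _s_at probe sets, and each experiment left out. A fit without the block and without the siLuc array of experiment 1 was also run.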

Additional observations from a re-analysis of the deposited data

How the results depend on the processing

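Without the replicate block, and so without the pairing, 0 member probe sets passed the adjusted threshold, 3 had an unadjusted p below 0.05, 0 of them higher and 3 lower, so that IFIT1 and IFIT5 did not pass the unadjusted threshold there, and the members' median log2 fold change was 0.17. Shares at an unadjusted p below 0.05 are given for members, then for all probe sets tested. Without the block they were 6.98% and 10.3%. With array weights 1 member probe set passed, and 9 had an unadjusted p below 0.05 (20.9% and 17.4%). That number was 7 of 65 with no filter (10.8% and 11.3%) and 2 of 29 with the 60th percentile filter (6.9% and 13.4%). It was 2 of 20 without _x_at and _s_at probe sets (10% and 12.6%). Without the block and the siLuc array of experiment 1 it was 8 (18.6% and 12.6%). It was 9, 3 and 3 without experiments 1, 2 and 3 (20.9%, 6.98% and 6.98%, against 13.9%, 9.95% and 12%). The median was 0.26 with median centring, 0.080 with no filter, 0.066 with array weights, 0.027 without the block and the siLuc array of experiment 1, and 0.067 to 0.21 with 1 experiment left out. With quantile normalization the members' median was 0.23. Quantile normalization moved the median of all probe sets to 0.094 and median centring to 0.11. The median of all probe sets was -0.16 with no filter and -0.0055 with array weights. Without the block and the siLuc array of experiment 1 it was -0.027.

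Of 40 named probe sets, 33 kept their sign under every alternative run for them, and 13 of 521 values turned. With 1 experiment left out the log2 fold change was -0.18 to 0.84 for IFIH1, -0.090 to 1.50 for RIGI, -0.62 to 0.30 for IFITM1, -0.33 to 0.84 for IFI6, -0.33 to 0.31 for IRF9, -0.13 to 0.24 for JAK1 and -0.45 to 0.0027 for STAT3. Without the block and the siLuc array of experiment 1, IFIH1 stood at -0.19, IFITM1 at 0.29 and IFI6 at -0.35. Array weights gave 0.084 for IFITM1 and -0.010 for JAK1, and quantile normalization -0.024 for JAK1. For each of these the cause was not tested. Dim signal and 3 arrays per group limit what could be detected.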

Other observations

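Some probe sets were annotated to a member together with another gene, so their signal cannot be given to either and they were left out of the member counts. The probe set shared by IFITM1 and IFITM2 read 2612, 1337 and 1538 with siLuc in experiments 1, 2 and 3 and 1086, 952 and 1087 with siPTHrP. The groups did not overlap, and the difference on the log2 scale was -0.74 with an SE of 0.32 (adjusted p = 0.409 in limma). The probe set shared by IRF9 and RNF31, a ubiquitin ligase subunit, read 98.7, 741 and 1424 with siLuc and 777, 874 and 815 with siPTHrP. Its siLuc values enclosed its siPTHrP values, and the log2 fold change was 0.74 (SE 0.69, adjusted p = 0.648).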
